A study of Homo sapiens with 4 samples.

Results

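The genes described here build, load or switch on MHC class II molecules. They are HLA-DRA, HLA-DRB1, HLA-DPA1 and HLA-DPB1, which encode the chains of the antigen-presenting dimers, CD74, which encodes their invariant chain, HLA-DMA and HLA-DMB, which encode the peptide loader HLA-DM, and CIITA and RFX5, which encode regulators of their promoters. These 9 genes were taken by symbol from 22985 named genes, and each had rows on a main chromosome in the count table. They were selected on tag counts of these same libraries, with their differences between the lines already known. Differences between the lines are therefore given for these 9 genes as descriptions, without a test.

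Total RNA depleted of ribosomal RNA was sequenced from C4-2 and from LNCaP human prostate cancer cells, with 2 libraries per line. C4-2 is labelled as castration-resistant cancer (CRPC) and is a subline of LNCaP. LNCaP is an androgen-sensitive line derived from a lymph node metastasis and is labelled as primary prostate cancer. All cells grew in RPMI with charcoal-stripped serum, which depletes steroids in each group, and no interferon or other agent is named in the labels. Groups follow the sample titles. The stored name of each library carries the other line's name, so all directions given here would be the other way about if the titles were wrong. The labels do not tell whether replicates stem from separate cultures, and the p-values therefore rest on a spread among these libraries that could be technical. In bulk RNA, fewer cells that express a gene and less RNA per cell cannot be told apart.

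MHC class II molecules are dimers of an alpha and a beta chain that show peptides from the endosomal pathway to CD4+ T cells. The invariant chain CD74 fills the groove of a new dimer and guides it to endosomes, where HLA-DM swaps the remaining fragment of CD74 for other peptides. Transcription needs a promoter module, made of an X box bound by RFX5 with RFXAP and RFXANK, an adjoining site of CREB and a Y box bound by NF-Y, onto which the coactivator CIITA is recruited. RFX5 and NF-Y are made in most cells, whereas CIITA is restricted to antigen-presenting cells or induced by interferon gamma, so that most epithelial cells carry little class II.

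Promoters of 7 of the 9 genes had an entry in the RefSeq table of assembly GRCh38.p14, which covers 250 bases before and 50 bases after each gene start. HLA-DRA and CIITA had no entry. Shown are HLA-DRB1 and CD74, whose levels were lower in the libraries labelled C4-2, and HLA-DMA and HLA-DMB, whose levels were higher there. Capitals mark the core of the Y box (CCAAT, or ATTGG on the other strand), of the X box (AGCAAC, or GTTGCT) and the CREB half-site (TGACG, or CGTCA).
HLA-DRB1, chr6:32589799-32590098, minus strand: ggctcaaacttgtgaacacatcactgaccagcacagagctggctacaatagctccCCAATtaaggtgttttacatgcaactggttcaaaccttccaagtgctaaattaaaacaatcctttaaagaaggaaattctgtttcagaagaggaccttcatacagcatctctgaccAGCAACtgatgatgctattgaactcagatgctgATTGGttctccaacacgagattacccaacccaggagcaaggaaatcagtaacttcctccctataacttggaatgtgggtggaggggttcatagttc
CD74, chr5:150412861-150413160, minus strand: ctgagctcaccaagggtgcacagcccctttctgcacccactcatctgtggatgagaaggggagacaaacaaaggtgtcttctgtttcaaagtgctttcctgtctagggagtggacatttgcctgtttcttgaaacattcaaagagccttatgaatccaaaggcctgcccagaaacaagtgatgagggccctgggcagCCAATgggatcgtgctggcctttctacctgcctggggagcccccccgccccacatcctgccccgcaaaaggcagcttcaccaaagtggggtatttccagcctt
HLA-DMA, chr6:32953048-32953347, minus strand: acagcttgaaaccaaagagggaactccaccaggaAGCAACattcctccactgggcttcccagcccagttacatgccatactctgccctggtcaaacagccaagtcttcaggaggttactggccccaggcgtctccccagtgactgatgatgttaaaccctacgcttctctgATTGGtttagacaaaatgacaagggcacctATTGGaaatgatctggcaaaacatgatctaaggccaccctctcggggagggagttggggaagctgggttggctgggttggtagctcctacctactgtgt
HLA-DMB, chr6:32940979-32941278, minus strand: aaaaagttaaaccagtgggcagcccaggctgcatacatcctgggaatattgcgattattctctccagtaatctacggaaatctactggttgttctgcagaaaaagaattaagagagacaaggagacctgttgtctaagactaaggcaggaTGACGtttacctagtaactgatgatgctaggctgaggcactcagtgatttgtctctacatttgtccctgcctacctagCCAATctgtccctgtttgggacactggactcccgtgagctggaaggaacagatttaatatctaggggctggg
In HLA-DRB1 an X box core starts at position -79 from the gene start and an ATTGG at -46, the order of the class II module. HLA-DMA has ATTGG at -79 and -49 and a match to AGCAAC far upstream at -216. HLA-DMB has the CREB half-site at -100 and CCAAT at -22, and CD74 has CCAAT at -53 alone. None of these cores is rare: of 35116 promoters in the table, 34.6% hold the Y core, 12.8% the X core and 24.6% the CREB half-site. An X core followed 15 to 40 bases further on by ATTGG was found in 0.330% of them, with HLA-DRB1 among these, and that spacing was chosen with the sequences in view. A match is a string of letters and does not show that a factor binds. A search for exact letters also misses variants of a box. The letters tgatgatg, which follow the X core of HLA-DRB1, also occur in HLA-DMA and HLA-DMB, behind letters that differ from AGCAAC. A promoter without a marked core can therefore still hold the box, and the module cannot be called absent from these genes.

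Named genes held 163126630 and 119080520 sense tags in the libraries labelled C4-2 and 58925680 and 70459588 in those labelled LNCaP. These were 67.7% and 69.4% of the library totals that underlie the RPKM values in C4-2, against 31.0% and 35.7% in LNCaP. Levels are given as CPM, sense tags per 1000000 tags after TMM scaling, and as TMM-scaled RPKM, which divides CPM by exon length in kilobases and allows genes to be compared. Scaling by the RPKM totals instead raised the log2 fold change of the median gene to 1.01, against -0.01 with TMM, and moved each of the 9 class II genes upwards by about as much. Directions below are relative to the typical gene, and the part of the unequal exon share in them was not tested. All 11 prostate luminal markers passed the filter on low counts, and 8 were higher and 3 lower in C4-2, with a summed level of 4117 to 4168 CPM in C4-2 and 3253 to 3256 CPM in LNCaP. The lower ones were KLK3 (6.14 and 6.23 CPM in C4-2, against 533.0 and 557.2 CPM in LNCaP), KLK2 (18.4 and 18.9 CPM, against 247.5 and 264.7 CPM) and FOLH1 (977.6 and 994.2 CPM, against 1153 and 1119 CPM).

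The antigen-presenting chains of this set and CD74 were lower in the libraries labelled C4-2, the genes of HLA-DM were higher there, and RFX5 differed little. Genes of the same system thus stood on opposite sides of the typical gene. All 9 genes passed the filter on low counts, but HLA-DRA, HLA-DRB1, HLA-DPA1, HLA-DPB1 and CD74 passed it through the LNCaP libraries only. By the threshold used for other genes (edgeR quasi-likelihood test, Benjamini-Hochberg adjusted p under 0.05), 3 stood higher and 6 lower. That threshold called 80.0% of the 15975 genes tested, 40.2% higher and 39.7% lower, so nothing is read from the count. Libraries of the lines did not overlap for any of the 9, as for 89.9% of genes tested.

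**Figure D1:**
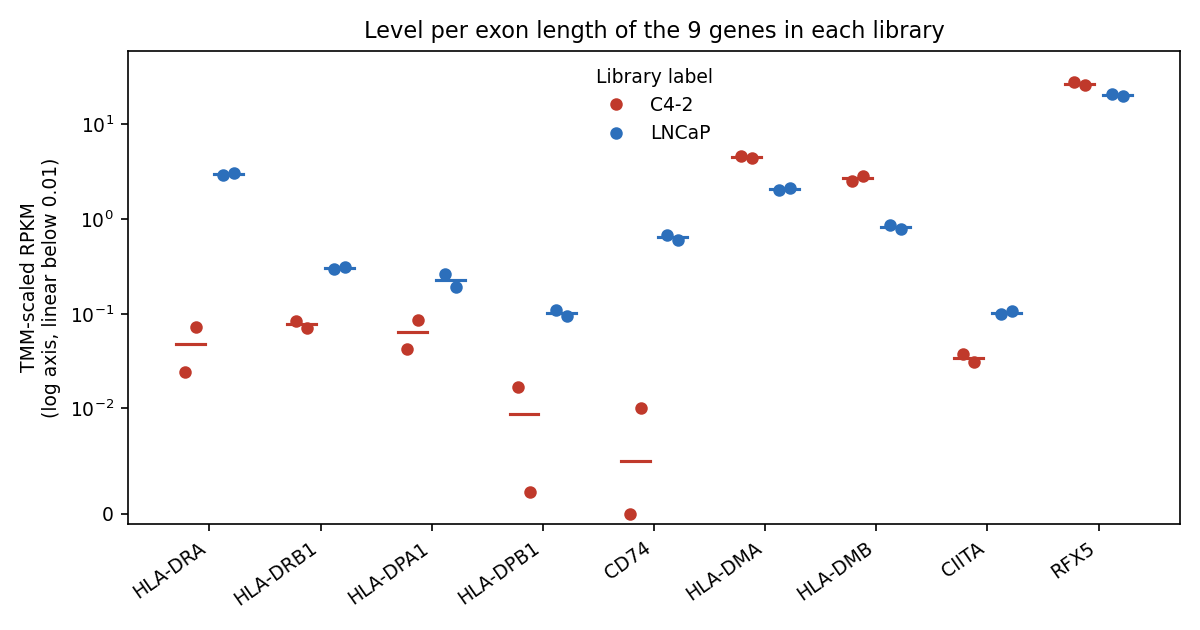
TMM-scaled RPKM of the 9 genes in each library (points) with the mean of the 2 libraries of a line (bars), on a log axis that is linear below 0.01. HLA-DRA falls among the lowest genes in the libraries labelled C4-2 (0.0242 and 0.0726) and is second to RFX5 in those labelled LNCaP (2.90 and 3.06), while HLA-DMA and HLA-DMB sit higher in C4-2.

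HLA-DRA encodes the alpha chain of HLA-DR, which barely varies between people (hg19 chromosome 6, 32407619 to 32412826, plus strand). It had 5 and 11 sense tags in the libraries labelled C4-2, against 224 and 278 in those labelled LNCaP. Its level was 0.0311 and 0.0932 CPM in C4-2 and 3.73 and 3.93 CPM in LNCaP. The LNCaP libraries lay close together and far above both C4-2 libraries, which rested on a handful of tags. The fitted log2 fold change was -6.02 ± 0.30 (SE), and the ratio of tags, corrected for library size, was 66.8-fold in favour of LNCaP (95% exact interval for counting error 40.7 to 117.8). Of the genes tested, 174 had a fold change as low or lower. Without C4-2 replicate 1 the value was -5.33, and without C4-2 replicate 2 it was -6.88. No tag lay on the opposite strand of HLA-DRA in any library. Per exon length HLA-DRA exceeded 6.54% of tested genes in C4-2 and 37.6% in LNCaP.

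HLA-DRB1 encodes the polymorphic beta chain that pairs with HLA-DRA (chromosome 6, 32546547 to 32557613, minus strand). It had 16 and 10 tags in the libraries labelled C4-2 and 21 and 26 in those labelled LNCaP, or 0.0996 and 0.0848 CPM against 0.350 and 0.367 CPM. The libraries of each line agree closely, and the lines differ by a log2 fold change of -1.93 ± 0.36 (SE). The ratio of tags was 3.85-fold in favour of LNCaP (counting interval 2.34 to 6.47). Alpha and beta chain thus differed between the lines by unequal amounts. Per exon length HLA-DRA stood at 0.289 and 1.02 times HLA-DRB1 in the C4-2 libraries and at 9.85 and 9.87 times in the LNCaP libraries. HLA-DRB1 shares sequence with HLA-DRB5 and the pseudogene HLA-DRB6, and its alleles can differ from the reference genome, so its tags are an uncertain measure, and the share of reads lost or moved between copies was not tested.

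HLA-DPA1 and HLA-DPB1, the chains of HLA-DP, lie head to head on opposite strands and overlap (chromosome 6, 33032346 to 33048555 and 33043703 to 33057473). HLA-DPA1 had 12 and 18 tags in the libraries labelled C4-2 and 28 and 24 in those labelled LNCaP. HLA-DPB1 had 11 and 1 tags in C4-2 and 27 in each LNCaP library. Per exon length neither exceeded 0.262 TMM-scaled RPKM in any library, where the median tested gene lay between 5.85 and 6.14. Their log2 fold changes were -1.86 ± 0.43 for HLA-DPA1 and -3.25 ± 0.58 for HLA-DPB1 (SE). The ratios of tags were 3.69-fold (counting interval 2.31 to 5.99) and 9.58-fold (5.06 to 19.7) in favour of LNCaP. HLA-DPB1 rested on 12 tags in C4-2, and its fold change was -5.37 without C4-2 replicate 1 and -2.57 without C4-2 replicate 2. Only 0 or 1 tag per library lay on the opposite strand of either gene, although each gene overlaps the other there.

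CD74 encodes the invariant chain, the chaperone of every new class II dimer (chromosome 5, 149781200 to 149792499, minus strand). It had 0 and 2 sense tags in the libraries labelled C4-2 and 68 and 72 in those labelled LNCaP. The level was 0 and 0.0170 CPM in C4-2, against 1.13 and 1.02 CPM in LNCaP, and the groups lie far apart. The ratio of tags was 149-fold in favour of LNCaP, with a counting interval from 40.5 to 1243, and the fitted log2 fold change was -6.99 ± 0.55 (SE). With so few tags the fitted value followed single libraries: it was -5.85 without C4-2 replicate 1 and -9.70 without C4-2 replicate 2.

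The strand of the CD74 tags differed between the lines as well. On the opposite strand lay 24 and 14 tags in the C4-2 libraries and 8 and 21 in the LNCaP libraries. Sense tags were thus 5% of all CD74 tags in C4-2 (exact interval 0.611% to 16.9%) and 82.8% in LNCaP (76.3% to 88.2%). Among 1163 tested genes with a like number of tags in C4-2, within 2-fold of its 40, the median sense share was 98.3% and 0.860% of them had a share as low. Adding both strands brought the log2 fold change of CD74 to -3.12. TCOF1, the gene of a nucleolar protein, named here after its values were seen, lies on that opposite strand and ends 1328 bases before the CD74 span. TCOF1 had 107.8 and 76.6 CPM in C4-2 and 34.7 and 38.3 CPM in LNCaP. Its part in the opposite-strand tags of CD74 was not tested.

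**Figure D2:**
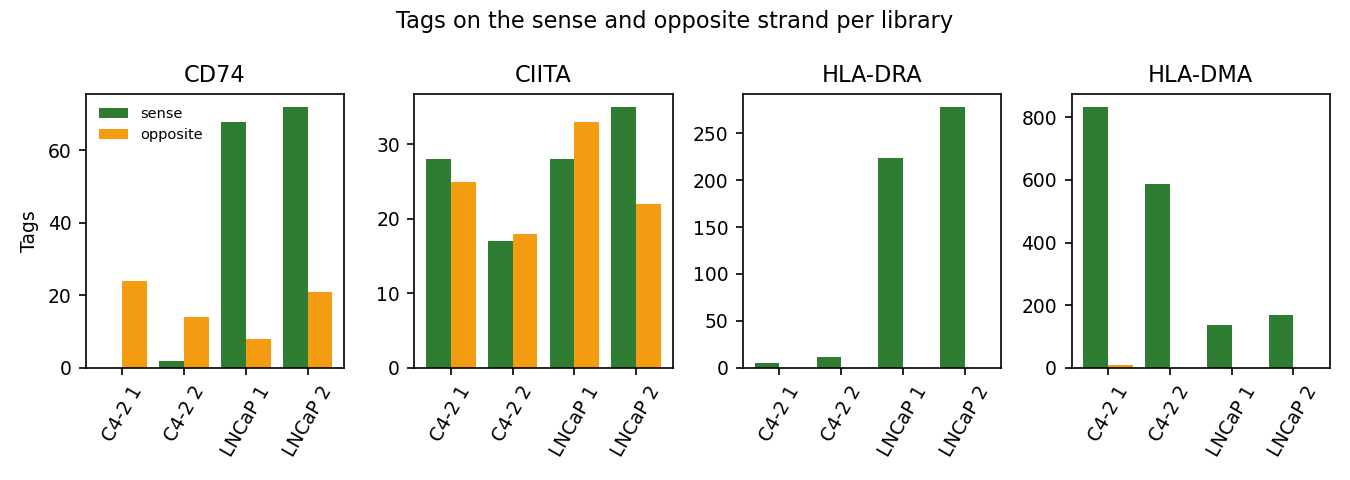
Sense and opposite-strand tags per library for CD74, CIITA, HLA-DRA and HLA-DMA, each on its own axis from 0. CD74 tags lie mostly on the opposite strand in the libraries labelled C4-2 (24 and 14, against 0 and 2 sense tags), CIITA has similar numbers on each strand (28 and 17 sense against 25 and 18 opposite tags in C4-2), and HLA-DRA has none on the opposite strand.

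HLA-DMA and HLA-DMB, the chains of the peptide loader HLA-DM, were higher in the libraries labelled C4-2. HLA-DMA (chromosome 6, 32916391 to 32920899, minus strand) had 833 and 587 tags in C4-2 and 138 and 169 in LNCaP, that is 5.18 and 4.98 CPM against 2.30 and 2.39 CPM. HLA-DMB (32902406 to 32908847, minus strand) had 574 and 474 tags in C4-2 and 73 and 77 in LNCaP, or 3.57 and 4.02 CPM against 1.22 and 1.09 CPM. Libraries of a line agree to within a small part of the gap between lines. The log2 fold change was 1.12 ± 0.11 for HLA-DMA and 1.72 ± 0.15 for HLA-DMB (SE). Over the 13 other settings they ranged from 1.03 to 2.12 and from 1.64 to 2.73. The ratio of HLA-DMA to HLA-DMB per exon length was 1.81 and 1.54 in C4-2 and 2.35 and 2.73 in LNCaP, so HLA-DMB differed between the lines by more than HLA-DMA. HLA-DRA, in contrast, stood at 0.00525 and 0.0164 times HLA-DMA in C4-2 and at 1.42 and 1.44 times in LNCaP.

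CIITA, the coactivator that switches on class II promoters, had few tags in each line (chromosome 16, 10971055 to 11018840, plus strand). It had 28 and 17 sense tags in the libraries labelled C4-2 and 28 and 35 in those labelled LNCaP. Per exon length this made 0.0374 and 0.0309 TMM-scaled RPKM in C4-2 and 0.100 and 0.106 in LNCaP, above 4.95% of tested genes in C4-2 and 6.76% in LNCaP. The log2 fold change was -1.57 ± 0.31 (SE), and the ratio of tags was 2.98-fold in favour of LNCaP (counting interval 2.00 to 4.47). With the RPKM totals it was -0.58, so the size of this difference depends on the scaling. The opposite strand held as many tags, 25 and 18 in C4-2 and 33 and 22 in LNCaP. The sense share was 51.1% in C4-2 (exact interval 40.2% to 61.9%) and 53.4% in LNCaP (44.0% to 62.6%). Of tested genes with a like number of tags, 13.1% in C4-2 and 16.7% in LNCaP had a sense share as low. Whether the few CIITA tags stem from its mRNA was not tested. A single CIITA transcript is in the table, so its alternative promoters could not be compared.

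RFX5, the subunit of the RFX complex that binds the X box, was the most abundant of the 9 genes (chromosome 1, 151313116 to 151319769, minus strand). It had 101.2 and 94.5 CPM in the libraries labelled C4-2 and 76.6 and 71.5 CPM in those labelled LNCaP, on 16255 and 11148 tags against 4600 and 5058. The log2 fold change was small, 0.40 ± 0.053 (SE), with 0.32 to 1.41 over the other settings. RFX5 exceeded 80.2% of tested genes per exon length in C4-2 and 77.3% in LNCaP. The levels of the class II chains therefore lay far apart from that of this regulator in each line.

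Ordered by TMM-scaled RPKM in the libraries labelled C4-2, RFX5 (27.0) came before HLA-DMA (4.53) and HLA-DMB (2.72). HLA-DRB1 (0.0778), HLA-DPA1 (0.0640) and HLA-DRA (0.0484) followed and could not be told apart by their libraries, and CIITA (0.0342) overlapped HLA-DRA. HLA-DPB1 (0.00947) and CD74 (0.00505) came last and overlapped each other. In LNCaP the order was RFX5 (20.5), HLA-DRA (2.98), HLA-DMA (2.09), HLA-DMB (0.824), CD74 (0.640), HLA-DRB1 (0.302), HLA-DPA1 (0.227), CIITA (0.103) and HLA-DPB1 (0.102). There only CIITA and HLA-DPB1 overlapped. Among the chain and loader genes of this set, HLA-DRA thus led in LNCaP, whereas in C4-2 the loader genes led without it. The chain gene HLA-DQB1, outside the set and described below, stood at 1.86 and 2.26 in C4-2 and at 0.920 and 0.603 in LNCaP. In C4-2 it was thus above each of the chains of the set.

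The genes between HLA-DRA and HLA-DPB1 form the class II region, which here spans 649.9 kb of chromosome 6 and 21 named genes. Of its 10 tested genes outside the set of 9, 4 had higher and 6 lower levels in C4-2 (background 40.2% and 39.7%), and genes of either direction were interspersed. With the RPKM totals 5 were higher and 2 lower. PSMB8, an immunoproteasome subunit, had 12 and 8 tags in C4-2 and 258 and 300 in LNCaP, a log2 fold change of -5.87 ± 0.21 (adjusted p = 1.06e-07), a pattern near that of HLA-DRA. Its neighbours TAP1 and TAP2, which form the peptide pump of the class I pathway, were higher (0.93 ± 0.065, adjusted p = 3.53e-06, and 0.31 ± 0.060, adjusted p = 0.0015). PSMB9, another immunoproteasome subunit, was lower at -0.89 ± 0.18 (adjusted p = 0.0022), with 0.84 and 0.98 CPM in C4-2 and 1.78 and 1.58 CPM in LNCaP. BRD2, a chromatin reader gene next to HLA-DMA, and LOC100294145 were lower too (-0.35 and -0.84). PSMB9, BRD2 and LOC100294145 turned positive with the RPKM totals. PSMB8-AS1 was lower at -2.93 (adjusted p = 0.012) on 8 and 0 tags in C4-2 and 19 and 10 in LNCaP. It overlaps transcripts of PSMB8 and TAP1 on the other strand, and with both strands added it stood at 0.99. Its value was -7.22 without C4-2 replicate 1 and -2.13 without C4-2 replicate 2.

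**Figure D3:**
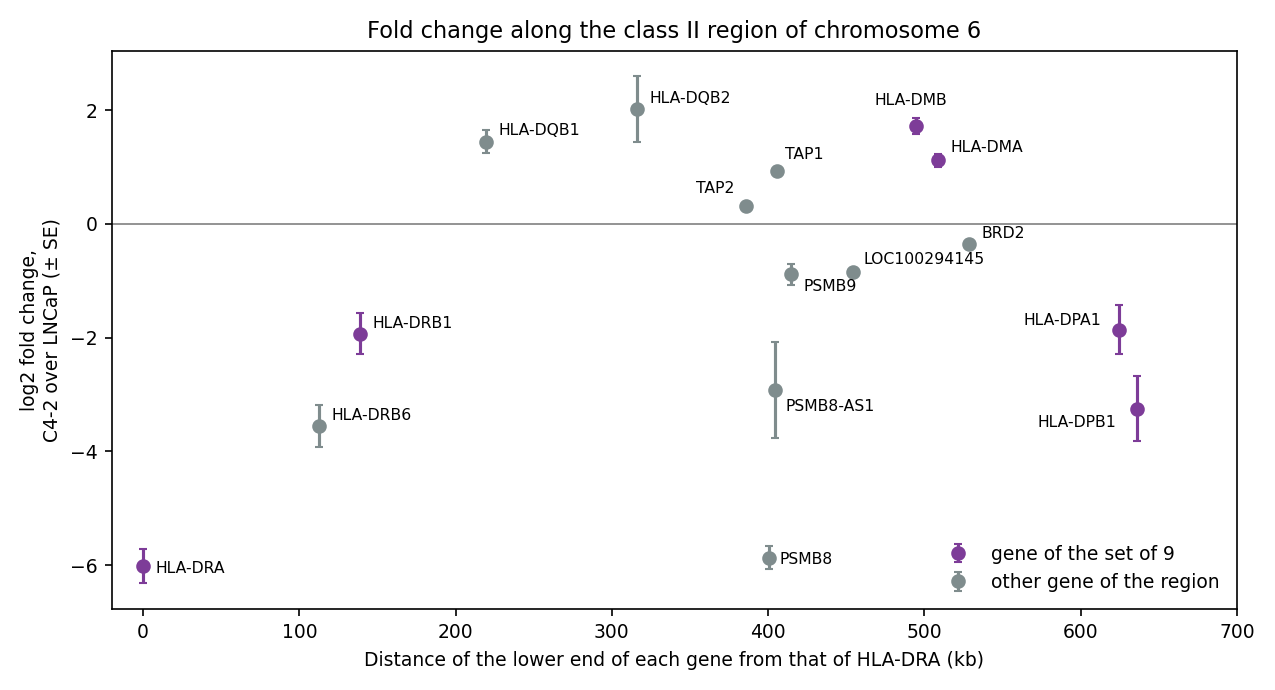
Log2 fold change (C4-2 over LNCaP, with SE) of the 16 tested genes of the class II region against the distance of each gene's lower end from that of HLA-DRA, in kb. HLA-DMA and HLA-DMB (1.12 and 1.72) lie above 0 between PSMB9 (-0.89) and BRD2 (-0.35), and HLA-DRA and PSMB8 lie lowest (-6.02 and -5.87).

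Other class II genes differed in both directions. HLA-DQB1, a beta chain of HLA-DQ, had 497 and 443 tags in the libraries labelled C4-2 and 92 and 71 in those labelled LNCaP, or 3.42 ± 0.468 CPM against 1.27 ± 0.374 CPM (SD, n = 2 each; log2 fold change 1.44 ± 0.21, adjusted p = 0.00026, edgeR). Its alpha chain HLA-DQA1 had 0 tags in either C4-2 library and 4 and 16 in LNCaP, too few tags for the test. The exact counting interval of the ratio started at 10.5-fold in favour of LNCaP, and 16 of the 20 LNCaP tags came from replicate 2. The beta chain of HLA-DQ therefore had tags in C4-2 where its partner had none. Whether HLA-DQA1 tags were lost where alleles differ from the reference genome was not tested. HLA-DQB2 had 42 and 28 tags in C4-2 and 1 and 7 in LNCaP (2.02 ± 0.58, adjusted p = 0.012). Its call ended without LNCaP replicate 1 (adjusted p = 0.0699) and by DESeq2 (0.0536), over a range of 2.11e-07 to 0.0699 in all settings. The log2 fold change was 1.34 without LNCaP replicate 1 and 3.83 without LNCaP replicate 2. The pseudogene HLA-DRB6 was lower, with 9 and 5 tags in C4-2 and 35 and 44 in LNCaP (-3.56 ± 0.37, adjusted p = 3.71e-05). Reads can be shared between HLA-DQB1 and HLA-DQB2 and among the HLA-DRB copies, so these values are uncertain. Of 11 genes on this list, 9 were in the table and 3 were tested, with 2 higher, 1 lower and a median log2 fold change of 1.44. HLA-DRB5, HLA-DOA, HLA-DOB, HLA-DQA2 and HLA-DPB2 had at most 7 tags in any library, and HLA-DRB3 and HLA-DRB4 were not analysed here.

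The partners of RFX5 and CIITA at the promoter differed by small amounts. Of 6 genes tested, 1 was higher and 3 were lower in C4-2, with a median log2 fold change of -0.14 against -0.01 over all genes. NFYC was higher (0.42 ± 0.080, adjusted p = 0.0013), and NFYA, NFYB and CREB1 were lower (-0.38, -0.27 and -0.34). NFYA, NFYB and NFYC encode the subunits of NF-Y, and CREB1 the factor that binds beside the X box. NFYA, for example, had 41.7 and 40.3 CPM in C4-2 and 53.3 and 53.4 CPM in LNCaP. With the RPKM totals NFYA, NFYB and CREB1 turned positive. The RFX subunit genes RFXANK and RFXAP did not pass (-0.01 and 0.12, adjusted p = 0.84 and 0.28).

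Genes that carry the interferon gamma signal to CIITA moved apart. Of 9 tested, 3 were higher and 3 lower (median -0.00072). JAK1, a receptor-bound kinase, was lower, with 3.08 and 2.74 CPM in C4-2 and 7.14 and 8.45 CPM in LNCaP (-1.42 ± 0.12, adjusted p = 1.12e-05), and the sign held with the RPKM totals. The receptor gene IFNGR1 and the phosphatase gene PTPN2 were lower (-0.48 and -0.45) and turned positive with those totals. JAK2 and USF1 lie outside the naming rule and were picked after their values were seen. They were higher in C4-2 (0.26 ± 0.053, adjusted p = 0.0024, and 0.18 ± 0.052, adjusted p = 0.013). IFNG itself had 0 tags in all 4 libraries, and SOCS1 had too few for the test.

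Proteases and other genes of endosomal antigen processing differed in both directions. Of 8 tested, 5 were higher and 3 were lower in C4-2, with a median of 0.29. The cathepsin gene CTSL had 222.9 and 216.5 CPM in C4-2 and 62.5 and 70.0 CPM in LNCaP (1.73 ± 0.060, adjusted p = 1.05e-07). LGMN, an asparagine-specific endopeptidase gene, was higher as well (1.16 ± 0.045, adjusted p = 1.60e-07). IFI30, a thiol reductase of the class II pathway, was lower, with 0.517 and 0.331 CPM in C4-2 and 2.76 and 3.35 CPM in LNCaP (-2.82 ± 0.23, adjusted p = 8.62e-06). SPPL2A, which cleaves the stub of CD74, was lower (-0.81 ± 0.042) and stood at 0.19 with the RPKM totals. CTSS, the protease that trims CD74 in antigen-presenting cells, lies outside the naming rule and was picked after its values were seen. It was lower at -2.48 ± 0.27 on 32 and 27 tags in C4-2 and 61 and 96 in LNCaP (adjusted p = 4.98e-05). Of all CTSS tags, 57.8% were sense tags in C4-2 and 88.2% in LNCaP. The other cathepsin genes outside that rule, CTSB, CTSD and CTSH, were higher in C4-2 (0.61, 0.23 and 0.35).

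Of the ubiquitin ligase genes that remove class II from the surface, MARCHF1 was higher (1.39 ± 0.14, adjusted p = 3.39e-05) and MARCHF8 did not pass (-0.14, adjusted p = 0.11). MARCHF1 had more tags on its opposite strand in LNCaP (324 and 346, against 65 and 83 sense tags) and stood at -0.46 with both strands added, so its direction depends on the strand. Of 10 tested chromatin cofactors and repressors of CIITA, 5 were higher and 4 lower (median 0.09). The histone deacetylase gene HDAC2, the remodeller gene SMARCA4 and the DNA methyltransferase gene DNMT1 were higher (1.10, 0.76 and 0.46), and the histone methyltransferase gene EZH2 was lower (-0.65), or at 0.35 with the RPKM totals. MIF, the ligand of CD74, did not pass (-0.12, adjusted p = 0.13). CXCR4, a co-receptor of CD74 for MIF, had 79 and 57 tags in C4-2 and 4 in each LNCaP library (2.97 ± 0.39, adjusted p = 0.00017). CXCR2 did not pass (0.77, adjusted p = 0.15), and CD44 had at most 6 tags. All 7 genes of the class I counterpart were lower (median -0.64), but with the RPKM totals HLA-F (-0.98), HLA-E (-0.64) and HLA-C (-0.38) turned positive. B2M, the light chain of class I, was lower in every setting, at -1.55 ± 0.040 (adjusted p = 2.87e-08). Over all 58 genes of these lists in the table, 48 were tested, 18 were higher and 21 lower, or 40 and 5 with the RPKM totals.

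**Figure D4:**
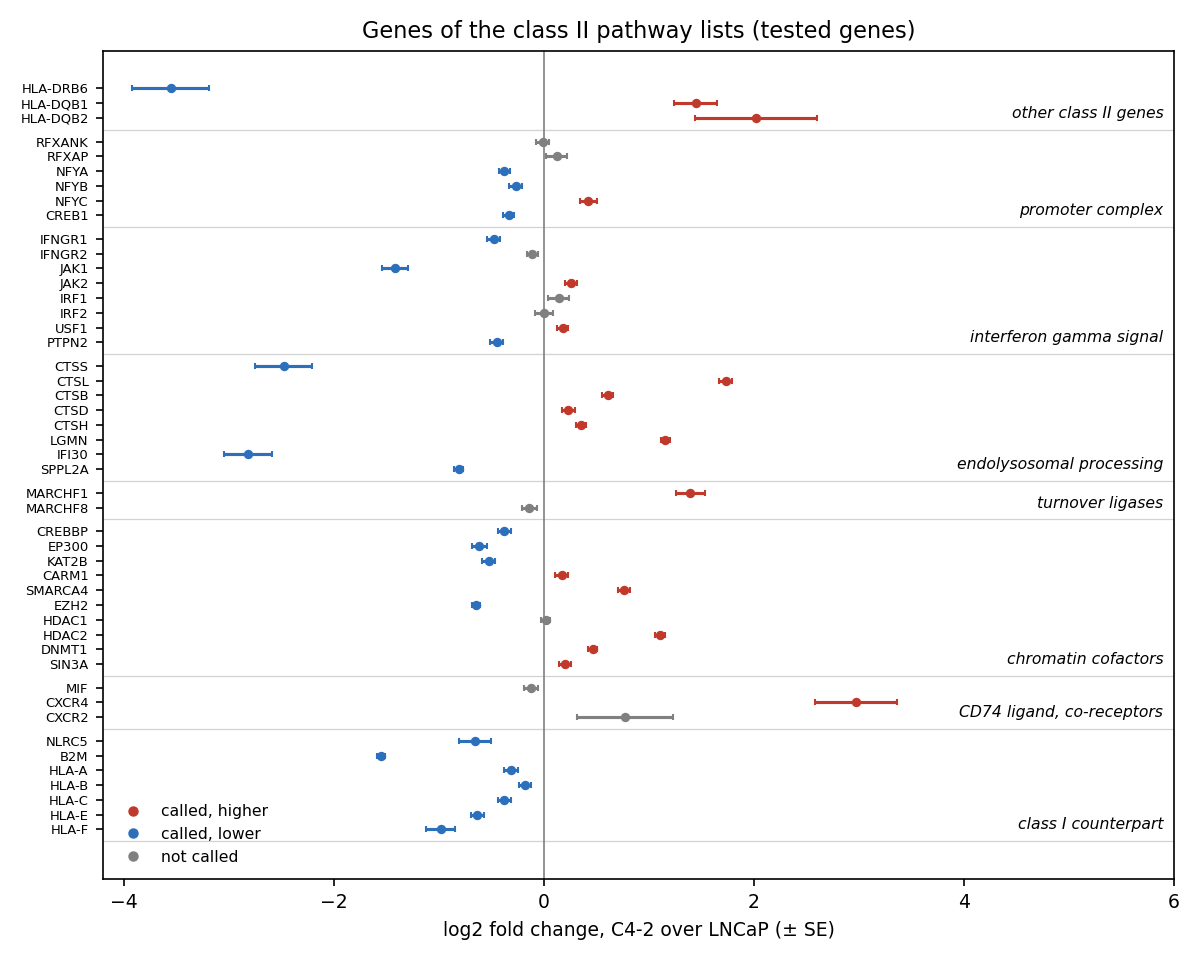
Log2 fold change (C4-2 over LNCaP, with SE) of tested genes of the class II pathway lists, in red where higher, blue where lower and grey where the test was not passed. Each list but that of the class I counterpart (7 of 7 lower, with HLA-C, HLA-E and HLA-F above 0 under the RPKM totals) holds genes on both sides or genes that did not pass.

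Of 20 markers of antigen-presenting and other immune cells, 5 passed the filter. Of these, 3 were lower in C4-2 and 0 higher (background 39.7% and 40.2%), too few to read as a trend. The summed level of the 20 markers with TMM scaling was 2.78 and 2.73 CPM in C4-2 and 4.53 and 4.87 CPM in LNCaP. That is the direction of HLA-DRA and CD74, but for the sum and its leading markers it depended on the scaling. With the RPKM totals the sum was higher in C4-2 instead. The macrophage gene CD68 (1.5 and 1.33 CPM in C4-2, against 1.46 and 1.85 CPM in LNCaP) and the lysozyme gene LYZ (0.809 and 0.873 CPM, against 1.65 and 1.64 CPM) led the list, at sense levels in LNCaP above that of CD74. Most tags of both genes lay on the opposite strand, however. The sense share was 46.0% in C4-2 and 20.9% in LNCaP for CD68, and 32.4% and 44.1% for LYZ. Whether their sense tags stem from mRNA was not tested. LYZ was lower in C4-2 (-0.97 ± 0.17, adjusted p = 0.00095), whereas CD68 did not pass (-0.23, adjusted p = 0.26). The myeloid integrin gene ITGAM was lower as well, with 2 and 0 tags in C4-2 and 23 and 20 in LNCaP (-5.31 ± 0.70, adjusted p = 0.00017). So was the endothelial and platelet gene PECAM1 (-1.44 ± 0.54, adjusted p = 0.037), on 13 and 9 sense tags in C4-2 and 19 and 9 in LNCaP. Its sense share was 37.3% in C4-2 and 51.9% in LNCaP, and with the RPKM totals its libraries overlapped between the lines. CD40, a receptor of antigen-presenting cells, had 0 tags in either C4-2 library and 4 and 21 in LNCaP. Markers that went the other way, all on few tags, were CD79A, CSF1R and CD3D. CD79A had 2 and 7 tags in C4-2 and 0 and 1 in LNCaP. CSF1R had 3 and 1 in C4-2, CD3D had 0 and 2, and both had 0 in each LNCaP library. The B-cell gene MS4A1, the T-cell gene CD3E and the myeloid gene TYROBP had 0 tags in every library, and the pan-leukocyte gene PTPRC had 6 tags in each C4-2 library and 5 and 10 in LNCaP. Whether cells of another type contributed to the class II tags was not tested beyond these levels.

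Genes with the pattern most like HLA-DRA were sought by the distance of log2(CPM + 0.5) over the 4 libraries. They were LHX6 (distance 0.236), PSMB8 (0.244), GGACT (0.246), SLC45A2 (0.248) and KCNQ5 (0.295). PSMB8, which lies in the class II region, is described above. LHX6 had 0 and 0.0339 CPM in the libraries labelled C4-2 and 4.16 and 3.72 CPM in those labelled LNCaP. The genes nearest to CD74 were SLFN11 (0.0827), KCNK6 (0.102), NXPE1 (0.179), RENBP (0.201) and LHX9 (0.203). SLFN11 had 0 tags in either C4-2 library and 69 and 77 in LNCaP. With 4 libraries in 2 groups, such closeness reflects a like level in each line.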

How the data were processed

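The submitters' processing notes name TopHat2 2.0.6, Bowtie and the build hg19. How tags were assigned to transcripts is not given in the sources used here. Per the file headers, the authors deposited 41351 RefSeq transcript rows per library, each with a count of tags and an RPKM value per strand. The deposited RPKM values were used only to recover exon lengths and library totals. Symbols came from RefSeq's gene table for GRCh38.p14, which matched 38974 of 40304 accessions. Those without a symbol (2.06% to 2.15% of sense tags) were left out. Each gene was represented by its transcript with most tags (mean share over libraries), and the sense strand was counted, with 1.29% to 1.99% of tags on the opposite strand.

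Counts were tested with edgeR 4.0.16 in R 4.3.3 (filter of 10 tags in a library of median size and 15 in all, TMM, quasi-likelihood test, line as the only term, Benjamini-Hochberg adjustment over all 15975 genes, threshold 0.05). The code was tested on simulated data. DESeq2 1.42.0 was an alternative. Alternatives covered scaling, filter, transcript choice, strand, replicate block, abundant RNAs and leaving out each library. Counting intervals are exact at 95% and cover counting error only. Replicates differed by more than sampling noise (chi-square per degree of freedom 12.4 for C4-2 and 24.5 for LNCaP), so none was taken for a copy.

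The genes and lists were chosen with earlier results of these data known. Named were the 9 genes, up to 4 genes per list by smallest adjusted p (by level where fewer than 2 were called), genes of the region with at least 10 tags in a library, and the 5 nearest patterns to HLA-DRA and to CD74. Some genes of the lists, though counted in them, are not reported here.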

Additional observations from a re-analysis of the deposited data

How the results depend on the processing

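The 9 class II genes kept their direction under each of the 13 other settings that gave a value. HLA-DRB1, HLA-DPA1, HLA-DPB1 and CIITA had no value under the stricter filter (at least 1 CPM in 2 libraries). The RPKM totals gave -5.02 for HLA-DRA, -0.94 for HLA-DRB1, -0.85 for HLA-DPA1, -2.26 for HLA-DPB1, -6.04 for CD74 and -0.58 for CIITA. CD74 moved most with both strands added (-3.12), and C4-2 libraries left out moved it and HLA-DPB1 as given above. With those totals, 11627 genes were higher and 1664 lower (main test 6429 and 6346, or 87.5% higher among calls against 50.3%). The pathway lists then held 40 higher and 5 lower genes and the class II region 2 lower ones. Under these totals the following turned positive: NFYA (0.63), CREB1 (0.67), NFYB (0.74), PTPN2 (0.55), IFNGR1 (0.53), SPPL2A (0.19), MARCHF8 (0.86), EZH2 (0.35), MIF (0.88), HLA-E (0.37), HLA-F (0.017), HLA-C (0.62), PSMB9 (0.12), LOC100294145 (0.16) and BRD2 (0.66). Adding both strands turned MARCHF1 (-0.46) and PSMB8-AS1 (0.99). The cause of these turns was not tested. With the replicate number as a block, 6259 genes were higher and 6141 lower. Deviations of same-numbered libraries had a correlation of -0.024, so no shared deviation was seen. That value cannot tell whether same-numbered libraries were grown or prepared together. Counts on haplotype sequences could not be added, since all rows lie on main chromosomes. Depth limits CD74, HLA-DPB1 and HLA-DRA in C4-2, which rest on 2, 12 and 16 tags.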
